A study of Canis lupus familiaris with 12 samples.

Results

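The genes described here encode molecular chaperones: the heat shock proteins of the HSP70, HSP90, HSP110 and small classes, the J-domain proteins (DNAJ) and the subunits of the cytosolic chaperonin. They were picked by a rule on gene symbols that used no measured value, and 69 of the 29822 annotated genes matched. The rule was set with earlier results of these data known. The members are 11 HSP70 genes, 3 HSP90 genes, 1 HSP110 gene, 7 small heat shock genes, 9 chaperonin genes, and 3 DNAJA, 12 DNAJB and 23 DNAJC genes. Of these, 57 had enough reads to be tested. The other 12 had no more than 0.621 CPM (read counts scaled to normalised library size) in any library, a level reached by HSPB8, and 4 of them had 0 reads throughout. HSPD1, HSPE1 and CCT7, the mitochondrial chaperonin pair and a chaperonin subunit, were not analysed here.

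Messenger RNA was measured in peripheral blood mononuclear cells (PBMCs, the lymphocytes and monocytes of blood) from healthy male beagles that serve as blood donors, isolated on a density gradient. The cells were kept 24 h in culture in 4 groups: untreated, with 1.0 mM of 5-aminolevulinic acid (ALA, the precursor of heme), with 0.5 µg/ml of concanavalin A (ConA, a lectin from jack beans and a T cell mitogen), and with both agents. Each group holds 3 libraries, numbered 1 to 3, and all groups share the same serum-supplemented medium. The labels give no age and do not say whether a number marks an animal, so a p-value sets a difference against the spread of these libraries only, which may be technical.

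Chaperones bind unfolded or partly folded proteins. HSP70 proteins bind short exposed stretches and release them in cycles driven by ATP, J-domain proteins bring substrates to HSP70 and start its ATP hydrolysis, and HSP110 proteins exchange its nucleotide. HSP90 finishes the folding of kinases and receptors, and the chaperonin encloses newly made proteins such as actin and tubulin in a double ring. Lymphocytes that leave rest enlarge and make more protein, and the chaperones of the cytosol, the endoplasmic reticulum (ER) and the mitochondrion are encoded by separate genes.

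The libraries held 13390692 to 21517099 exon reads. The share of exon reads from genes of the mitochondrial genome was 3.59 to 4.82% for the 4 libraries numbered 1 and 11.8 to 23.3% for those numbered 2 and 3, so the number moved with library composition in every group. Within each number it was higher with ConA than in untreated cells, at 4.48 against 3.98%, 23.3 against 12.7% and 17.2 against 13.1%. The intron share of gene reads was lower with ConA in each number, at 29.1 against 32.7%, 35.1 against 39.7% and 34.5 against 36.2%. Markers of the labelled cells were present. The 8 T cell markers summed to 839 to 1419 CPM in untreated and 601 to 1077 CPM in ConA libraries, and the 6 B cell markers to 1453 to 2314 and 1355 to 2344 CPM. The 5 monocyte markers measured, of 6 listed, summed to 311 to 647 CPM in untreated cells, 249 to 1168 with ALA, 52.5 to 207 with ConA and 90.7 to 271 with both. The 5 neutrophil markers summed to 200.2 to 431, 197 to 2341, 73.9 to 155 and 656 to 2406 CPM in the same order. CXCR2, 1 of these 5, was at 0 in all libraries with ALA, ConA or both, so the sums there came from the other listed markers. Platelet markers (2 of 4 measured) and erythroid markers (3 of 4) summed to at most 106 and 394 CPM. With ConA, 2 of 5 monocyte, 3 of 4 tested neutrophil and 2 of 6 B cell markers fell, and among the 8 T cell markers 1 rose (CD28) and 1 fell (CD5). A further model took the replicate number as a block, which takes out differences shared by libraries of the same number. With the block 5 of 5 monocyte, 3 of 4 neutrophil, 4 of 6 B cell and 5 of 8 T cell markers fell and 1 T cell marker rose. Of all genes tested, 8.57% fell and 9.93% rose with ConA, and 21.2% fell and 21.3% rose with the block. These shifts in markers, mitochondrial share and intron share went with the changes described next, and their part in them was not tested.

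The 69 genes together took 0.757, 0.687 and 0.670% of exon reads in untreated libraries 1, 2 and 3, and 0.939, 0.765 and 0.695% with ALA. With ConA they took 2.15, 1.53 and 1.18%, and with both agents 1.83, 1.46 and 1.09%. Every ConA library lay above every library without it. In RNA from mixed cells, fewer cells of a type and less RNA per cell cannot be told apart.

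With ConA, 7 of 8 tested chaperonin genes, 2 of 3 HSP90 genes, the HSP110 gene, 4 of 9 HSP70 genes, 2 of 3 DNAJA, 1 of 10 DNAJB and 5 of 20 DNAJC genes were higher than in untreated cells, by 1.96 to 5.49-fold. By edgeR's quasi-likelihood test with Benjamini-Hochberg adjustment over 13358 genes, 22 of 57 tested members rose and 1 fell. Of all genes tested, 9.93% rose and 8.57% fell, 18.5% in all. The median log2 fold change was 0.61 over the members and −0.05 over all genes. With the block 35 members rose and 2 fell, against 21.3% and 21.2% of all genes. Without the libraries numbered 2 no member passed the edgeR test, and the share of all genes called went from 18.5% to 0.405% (0.309% higher). The differences themselves were of similar size there: the members' median was 0.56, CCT4 differed by 2.07 (2.09 with all libraries), HSPA8 by 1.58 (1.65) and HSPA4 by 1.99 (1.87). With the block and without those libraries 25 members rose, against 15.7% of all genes that rose and 27.9% called in all.

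**Figure D1:**
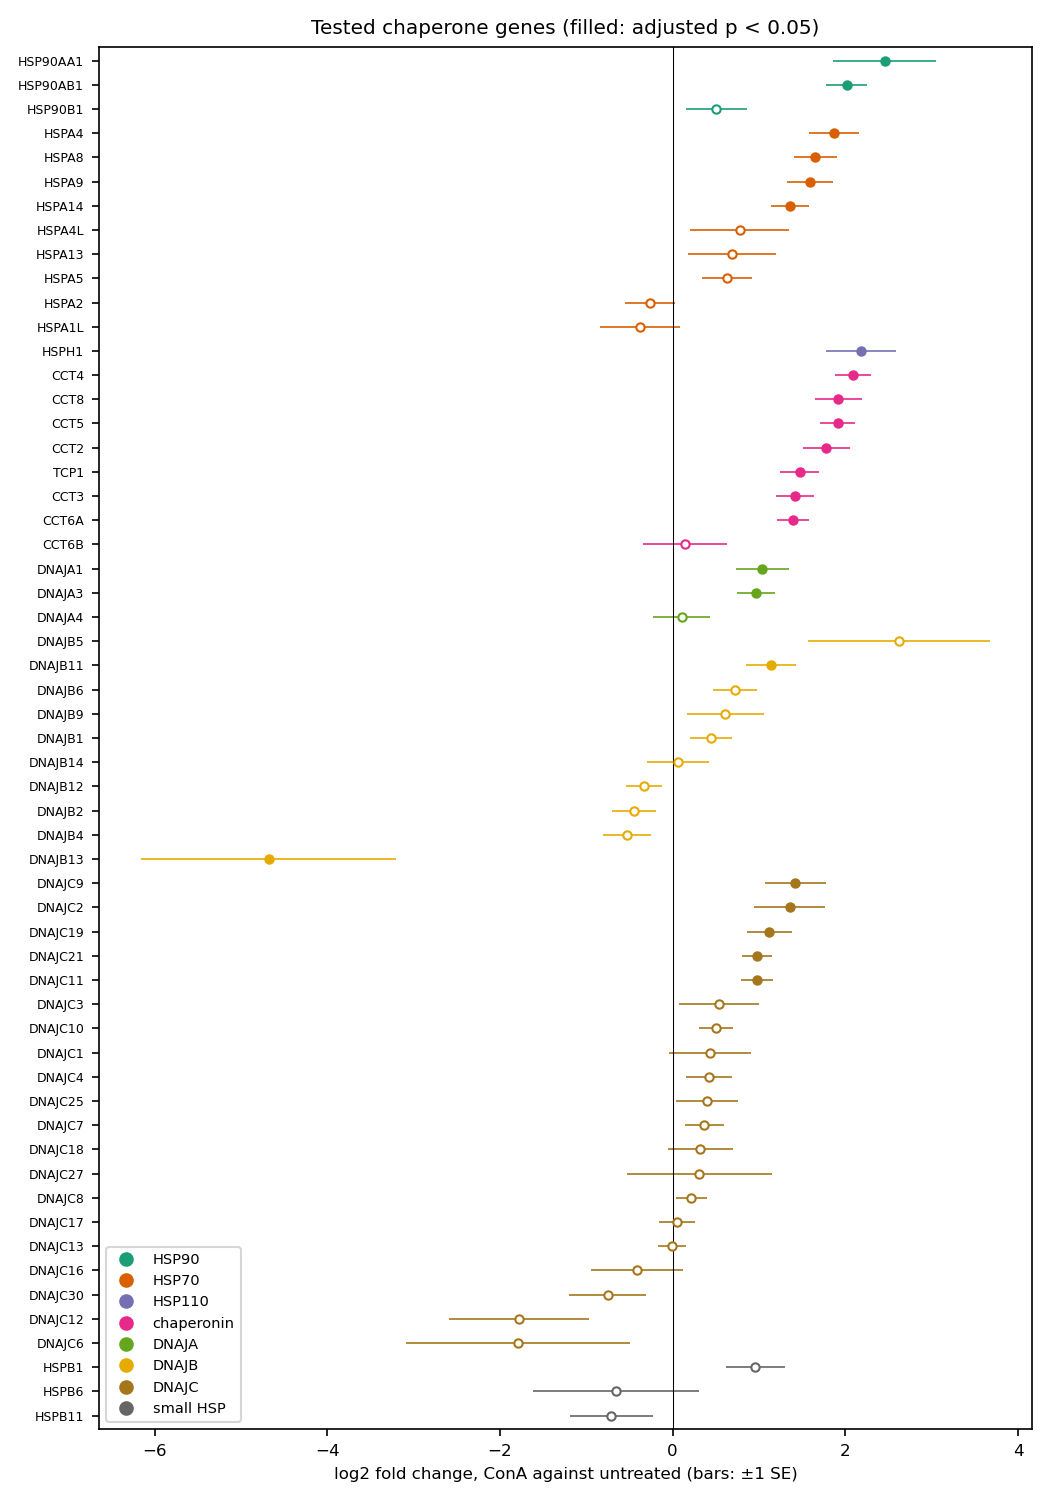
Log2 fold change of each tested member, ConA against untreated, with bars of 1 SE, coloured by class; filled points passed the adjusted threshold. The filled points lie to the right of 0 except that of DNAJB13, and 7 of 8 chaperonin points are filled.

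Both cytosolic HSP90 genes rose. HSP90AB1, the constitutive cytosolic HSP90, stood at 670, 791 and 788 CPM in untreated libraries 1 to 3 and at 3328, 3327 and 2457 CPM with ConA. All ConA values lay above all untreated ones, and the difference was 4.05-fold (log2 2.02 ± 0.24 SE, adjusted p = 0.000401). HSP90AA1, the inducible cytosolic form, went from 380, 753 and 356 CPM to 1892, 5078 and 1212 CPM, again without overlap. Library 2 was the highest of its group in each of the 4 groups for this gene, and its ConA value lifted the mean to 2728 ± 2064 CPM (SD, n = 3). The log2 difference was 2.46 ± 0.60 (adjusted p = 0.0147). The HSP90AA1 call was lost when ConA library 2, untreated library 1 or untreated library 3 was left out, with an adjusted p of at most 0.0602. It was also lost without all libraries of number 1 (2.50, adjusted p = 0.193), number 2 (2.11, 0.0576) or number 3 (2.62, 0.0695). HSP90B1, the ER form also known as GRP94, stood at 687, 914 and 1545 CPM without and 1270, 1503 and 1691 CPM with ConA, and these ranges overlapped. It differed by 0.51 ± 0.35 (adjusted p = 0.354), and with the replicate block by 0.58 ± 0.14 (adjusted p = 0.00429), while over all alternatives the adjusted p ran from 0.00136 to 0.704.

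Levels of different genes can be set side by side only per length of transcript, in the deposited TPM values (exon reads scaled by exon length and library). The ratio of HSP90AB1 to HSP90B1 in TPM was 1.73, 1.53 and 0.904 in untreated libraries 1 to 3 and 4.64, 3.92 and 2.57 with ConA. The ratio was higher with ConA in all 3 numbers. It was above 1 in untreated libraries 1 and 2 as well, and library 3 alone went from below 1 to above it. HSP90AA1 over HSP90AB1 was 0.841, 2.26 and 0.730 with ConA and 0.839, 1.41 and 0.669 without, so library 2 had the highest ratio in both groups. The annotated exon length of HSP90AA1 is 1649 bases, against 2439 for HSP90AB1. The HSP90AA1 model may be partial, which would change its TPM, so the ratio serves to compare libraries and not to say which form is more abundant. The HSP90B1 gene model (chromosome 15, 42456764 to 42579311, CanFam3.1) overlaps TDG, GLT8D2, HCFC2 and C15H12orf73, 2 of them on its own strand.

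**Figure D2:**
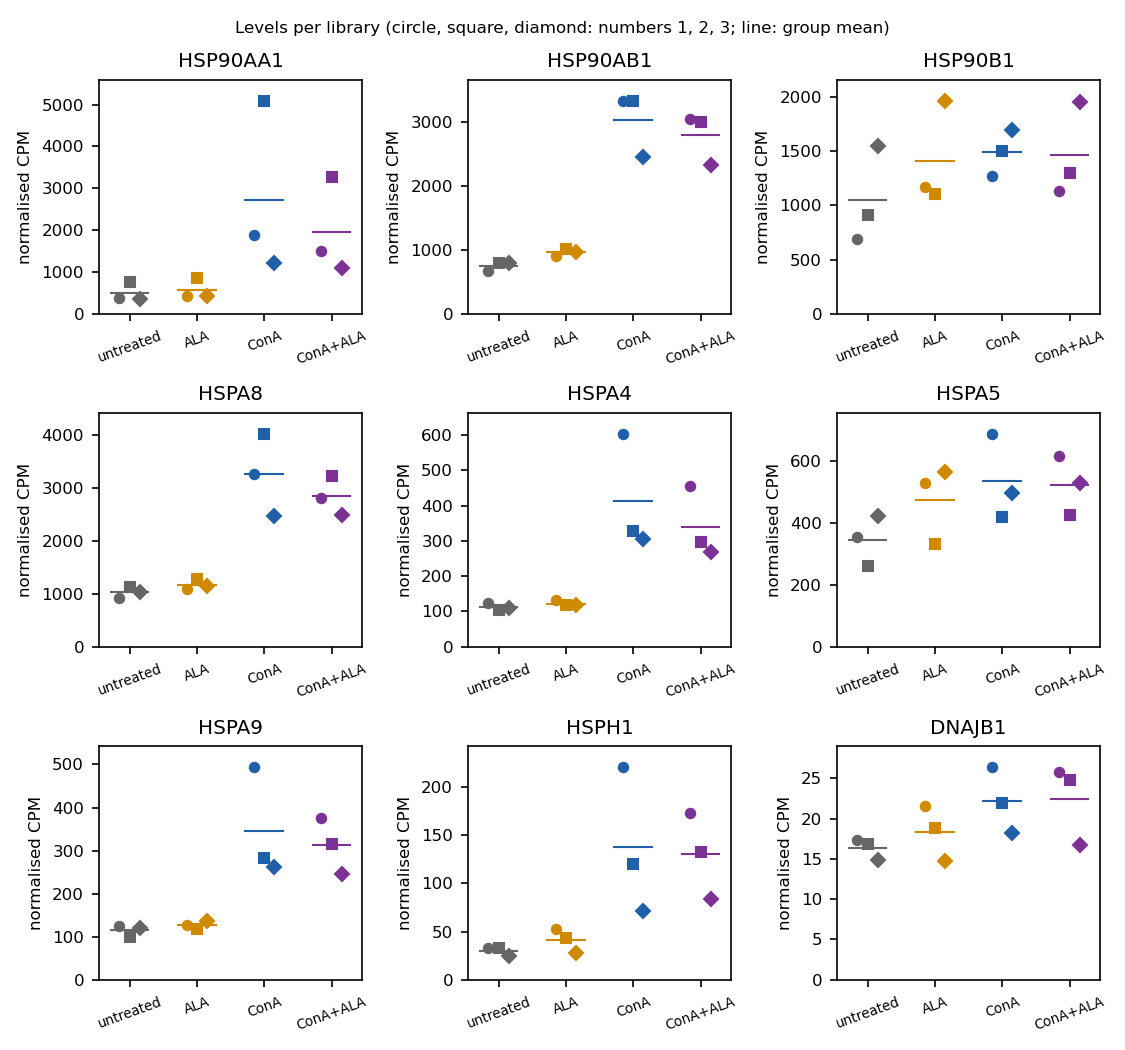
Normalised CPM of 9 members in each of the 12 libraries, by group; circles, squares and diamonds are numbers 1, 2 and 3 and lines are group means. HSP90AB1 reaches 2335 CPM or more in every library with ConA and at most 1016 CPM without it, whereas the HSP90B1 and HSPA5 groups overlap.

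In the HSP70 class 4 of 9 tested genes rose. HSPA8, the constitutive cytosolic HSP70 (HSC70), was at 928, 1137 and 1037 CPM in untreated and at 3268, 4011 and 2475 CPM in ConA libraries. The groups were apart and differed 3.14-fold (1.65 ± 0.25, adjusted p = 0.00124). HSPA8 shares reads with near-identical copies: 87.2% of its exon reads were unique to it. HSPA4, a cytosolic relative that acts as a nucleotide exchange factor for HSP70, went from 124, 105 and 110.0 CPM to 602, 328 and 306 CPM. HSPA9, the mitochondrial HSP70 (mortalin), went from 126, 100.4 and 119 CPM to 493, 282 and 263 CPM. For both genes ConA library 1 was the highest and no ConA library overlapped the untreated ones. Their log2 differences were 1.87 ± 0.29 (adjusted p = 0.00144) and 1.59 ± 0.27 (adjusted p = 0.00209). HSPA14, a ribosome-associated HSP70 that works with DNAJC2, differed by 1.36 ± 0.23 (adjusted p = 0.00199), from 26.4, 36.7 and 34.4 CPM to 82.9, 96.2 and 71.1 CPM.

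HSPA5, the HSP70 of the ER (BiP), did not pass. Its levels were 355, 260 and 420 CPM in untreated and 685, 420 and 496 CPM in ConA libraries. Untreated library 3 and ConA library 2 stood at almost the same level. Within each number the ConA library was higher, by 0.95, 0.69 and 0.24 on the log2 scale. The difference was 0.63 ± 0.29 (adjusted p = 0.152), and with the block 0.63 ± 0.14 (adjusted p = 0.00195, and 0.000636 to 0.394 over all alternatives). HSPA8 over HSPA5 in TPM went from 2.51, 4.20 and 2.37 to 4.58, 9.17 and 4.78. HSPA1L and HSPA2, which have their main known roles in the testis, and HSPA4L were at 1.09 to 16.2 CPM in all libraries, and none passed. The stress-inducible HSP70 genes HSPA1A and HSPA1B are not among the members and were not analysed here.

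HSPH1, the HSP110 protein, stood at 32.7, 33.2 and 24.95 CPM in untreated and at 221, 121 and 71.8 CPM in ConA libraries. ConA library 1 was the highest, and the lowest ConA library was above every untreated one. The difference was 4.55-fold (2.19 ± 0.41, adjusted p = 0.00367).

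All 7 subunits of the cytosolic chaperonin that were measured at more than a few CPM rose. CCT4, the delta subunit, was at 120.2, 138 and 133 CPM in untreated and 608, 624 and 432 CPM in ConA libraries (2.09 ± 0.21, adjusted p = 0.000176), the smallest p of all members. TCP1, the alpha subunit, went from 112, 122 and 106 CPM to 382, 321 and 241 CPM (1.47 ± 0.22, adjusted p = 0.00122). The groups were apart for each of the 7, as they were, with ConA higher, for 17.3% of all genes. CCT5 differed by 1.91 ± 0.21, CCT8 by 1.92 ± 0.27, CCT2 by 1.78 ± 0.27, CCT3 by 1.42 ± 0.22 and CCT6A by 1.40 ± 0.19, with adjusted p from 0.000248 to 0.00139. CCT6B, a testis-type copy of the zeta subunit, stayed at 1.11 to 3.62 CPM and did not pass (0.14 ± 0.49). Of CCT6A reads 75.5% were unique to it. TCP1, CCT3 and CCT5 overlap ACAT2, LMNA and ATPSCKMT, and whether counting used strand is not given in the sources used here.

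The subunits sit in equal numbers in each ring, and their messages were at similar levels per length in untreated cells. The highest of the 7 TPM values in a library was 1.41 to 1.85 times the lowest in the untreated libraries, 1.55 to 1.84 with ALA, 2.21 to 2.56 with ConA and 2.05 to 2.37 with both. Each library with ConA had a wider spread than each library without it. CCT3, the gamma subunit, was the lowest in all 12 libraries, at 102, 61.1 and 53.7 TPM in untreated and 247, 102 and 101 TPM in ConA libraries. Its annotated exon length is 3315 bases, against 1785 to 2387 for the other subunits, and a longer model lowers TPM. CCT3 sets the low end of each ratio, so the ratios serve to compare libraries and not to say which subunit is scarcest. The highest subunit with ConA was CCT8 in number 1 and CCT4 in numbers 2 and 3.

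**Figure D3:**
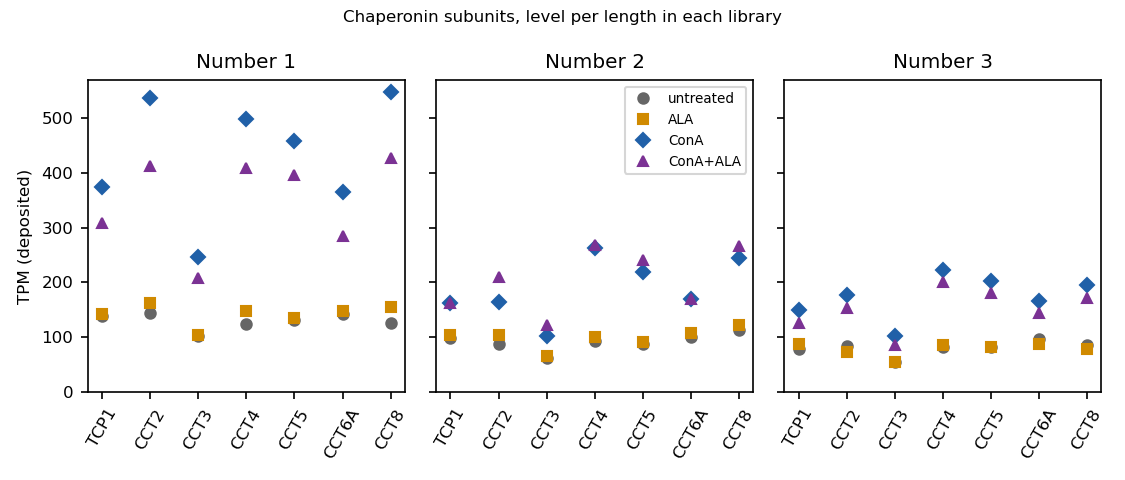
Deposited TPM of 7 chaperonin subunits in each library, one panel per replicate number. Levels without ConA lie between 53.7 and 162 TPM and those with ConA between 84.9 and 547 TPM, with CCT3 lowest in every library. CCT3 also has the longest annotated exon length of the subunits shown, which lowers its TPM.

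Of the 3 DNAJA genes, which carry the full set of J-protein domains, 2 rose. DNAJA1, a partner of HSPA8 in the cytosol, stood at 158, 204 and 152 CPM in untreated and 479, 311 and 266 CPM in ConA libraries (1.04 ± 0.31, adjusted p = 0.0361). Only 35.2% of DNAJA1 reads were unique, and on unique reads the difference was 1.14 ± 0.26 (adjusted p = 0.0101). Its call was lost without any 1 of 7 libraries (ALA 2, ConA 1, ConA 2, ConA+ALA 2, or untreated 1, 2 or 3), with adjusted p up to 0.129. DNAJA3, the mitochondrial member, differed by 0.97 ± 0.22 (adjusted p = 0.0102), from 22.0, 22.6 and 18.7 CPM to 40.7, 51.6 and 31.7 CPM.

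Of the 10 tested DNAJB genes 1 rose and 1 fell. DNAJB11, an ER partner of HSPA5, went from 120, 203 and 273 CPM to 375, 526 and 412 CPM (1.14 ± 0.29, adjusted p = 0.0181), a call lost without ConA library 2. DNAJB1, the classical heat-inducible HSP40, was at 17.3, 16.8 and 14.8 CPM in untreated and 26.4, 22.0 and 18.2 CPM in ConA libraries. Its groups did not overlap, but the difference of 0.44 ± 0.24 did not pass (adjusted p = 0.229, 0.0443 with the block and up to 0.517 over all alternatives). DNAJB13, an axonemal J protein, was the member that fell, on 33 reads in the untreated and 1 in the ConA libraries. That ratio of 31.7 has a 95% counting interval of 5.30 to 1288, and the call was lost in 10 of 12 fits without a single library. DNAJB2, a J protein that binds ubiquitin, differed by −0.44 ± 0.25 (adjusted p = 0.256, 0.0176 with the block and up to 0.737 over all alternatives).

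Among the DNAJC genes, which share only the J domain, 5 of 20 rose. DNAJC2, which sits on the ribosome with HSPA14, was at 23.4, 55.3 and 47.0 CPM in untreated and 67.2, 162 and 93.1 CPM in ConA libraries (1.36 ± 0.41, adjusted p = 0.0391). Number 1 was lowest in both groups, and the groups were apart. DNAJC9, a histone chaperone, went from 18.2, 14.4 and 14.5 CPM to 62.7, 25.9 and 37.7 CPM (1.42 ± 0.36, adjusted p = 0.0170). DNAJC19, a part of the mitochondrial import motor, differed by 1.12 ± 0.26, and DNAJC11, of the mitochondrial outer membrane, by 0.98 ± 0.19. DNAJC21, a ribosome biogenesis factor, rose by 0.98 ± 0.17 (adjusted p = 0.00266), from 26.9, 29.5 and 28.1 CPM to 58.5, 45.6 and 62.0 CPM. DNAJC13, an endosomal J protein, had 85.1 to 87.4 CPM in untreated and 77.4 to 92.6 CPM in ConA libraries and a difference of −0.01 ± 0.16. The DNAJC2 call was lost without ConA 2, ConA 3, ConA+ALA 2, ConA+ALA 3, untreated 1 or untreated 3, and the DNAJC9 call without ConA 1, untreated 2 or untreated 3, with adjusted p up to 0.156 and 0.0687.

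None of the 3 tested small heat shock genes passed. HSPB1 (HSP27), which binds unfolded proteins without using ATP, was at 26.4, 22.6 and 26.9 CPM in untreated and 59.5, 45.5 and 42.4 CPM in ConA libraries. The groups were apart, with a difference of 0.96 ± 0.34 (adjusted p = 0.0723, 0.00651 with the block, 0.0491 on unique reads, and 0.000287 to 0.378 over all alternatives).

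The 57 tested genes were then grouped by the compartment of their protein, from textbook knowledge and after the values had been seen. The 9 members of the ER are HSPA5, HSPA13, HSP90B1, DNAJB9, DNAJB11, DNAJC1, DNAJC3, DNAJC10 and DNAJC25. Their log2 differences with ConA lay between 0.40 and 1.14, and 1 of 9 (DNAJB11) passed, a share near the 9.93% of all genes that rose. With the block all 9 passed, at 0.41 to 1.20 and adjusted p up to 0.0412, against 21.3% of all genes that rose. DNAJC3, an ER co-chaperone also known as a kinase inhibitor, was at 49.6, 96.3 and 150.1 CPM in untreated and 85.4, 182 and 161 CPM in ConA libraries. Number 1 was lowest in both groups, and every number was higher with ConA. Of the 5 members of the mitochondrion, 4 passed without and with the block, and of the 43 others 17 rose and 1 fell without it and 22 rose and 2 fell with it. Whether the compartments differed from each other was not tested.

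With ALA present, 7 of 8 chaperonin genes, 4 of 9 HSP70 genes, 1 of 3 HSP90 genes (HSP90AB1), the HSP110 gene and 3 of 20 DNAJC genes were higher with ConA. In ConA with ALA against ALA alone, 16 of 57 members rose and none fell by edgeR. This comparison shares no library with that of ConA against untreated cells. Both come from the same fit, and libraries of the same number deviated together, so the comparisons are not independent. Of all genes tested, 5.09% rose and 3.03% fell, 8.12% in all. The median log2 fold change was 0.37 over the members and −0.07 over all genes. DESeq2 called 19 members higher, against 7.64% of all genes higher and 6.06% lower. With the replicate block 27 members rose and 1, DNAJC6, fell, against 15.8% and 14.3% of all genes, 30.1% in all. Without the libraries numbered 2 no member passed, against 0% of all genes, and the members' median was 0.51. Without those numbered 3, 2 members passed, against 0.74% of all genes that rose. Without ALA library 2 alone, 9 passed, and without the other libraries 11 to 18, with no share of all genes given here for these fits.

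The 7 chaperonin subunits passed again, from 1.05 ± 0.19 for CCT6A to 1.66 ± 0.21 for CCT4. HSP90AB1 went from 904, 1016 and 971 CPM with ALA to 3054, 2999 and 2335 CPM with both agents (1.54 ± 0.23, adjusted p = 0.00354). HSPA8 went from 1086, 1287 and 1142 CPM to 2811, 3231 and 2488 CPM (1.28 ± 0.25, adjusted p = 0.00956). The groups were apart for both genes, as for 14.9% of all genes with the higher values under ConA. HSPA4 differed by 1.47 ± 0.29, HSPA9 by 1.31 ± 0.26, HSPA14 by 1.02 ± 0.22 and HSPH1 by 1.66 ± 0.40. HSPH1 was at 52.8, 43.1 and 27.7 CPM with ALA and 174, 133 and 84.0 CPM with both. The J proteins that passed were DNAJC21 (0.96 ± 0.17), DNAJC19 (1.14 ± 0.26) and DNAJC11 (0.84 ± 0.19). Leaving out single libraries of these 2 groups ended the calls of HSPH1, HSPA14, TCP1, DNAJC11, DNAJC19, HSPA9 and HSPA4 in 1 or more fits. The most were lost without ALA 2 (7), ALA 1 and ConA+ALA 2 (5 each), with ConA+ALA 1 and ConA+ALA 3 at 3 each and ALA 3 at 1. The adjusted p then reached at most 0.0906.

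HSP90AA1 rose from 431, 851 and 415 CPM with ALA to 1489, 3262 and 1089 CPM with both agents once the block was used (1.70 ± 0.17, adjusted p = 5.9e-06). In the main fit, without the block, its difference of 1.78 ± 0.58 did not pass (adjusted p = 0.0850, and up to 0.396 over all alternatives). Also without the block, HSP90AA1 passed by DESeq2 (adjusted p = 0.0165) and by edgeR with ConA library 2 left out (adjusted p = 0.0479). DNAJA1 (0.47 ± 0.31, adjusted p = 0.407) and DNAJC2 (1.04 ± 0.41, adjusted p = 0.148) did not pass in the main fit. With the block they passed, at adjusted p of 0.0397 and 8.17e-05 (up to 0.714 and 0.430 over all alternatives). DNAJC2 also passed by edgeR without the block when number 1 was left out (0.99, adjusted p = 0.0389). DNAJC9, DNAJA3, HSPB1 and HSPA4L also passed with the block and not in the main fit. By DESeq2, which had no block, DNAJC9 (adjusted p = 0.0169) and DNAJA3 (adjusted p = 0.0356) passed. In edgeR fits without the block, DNAJC9 also passed when ConA 1, ConA 2 or ConA+ALA 3 was left out (adjusted p up to 0.0475). DNAJA3 did so when ALA 3 was left out (adjusted p = 0.0473). HSP90B1 (0.05 ± 0.35) and HSPA5 (0.14 ± 0.29) passed in neither model. Of the 9 ER members none passed, and 2, DNAJB11 and DNAJC10, did so with the block.

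**Figure D4:**
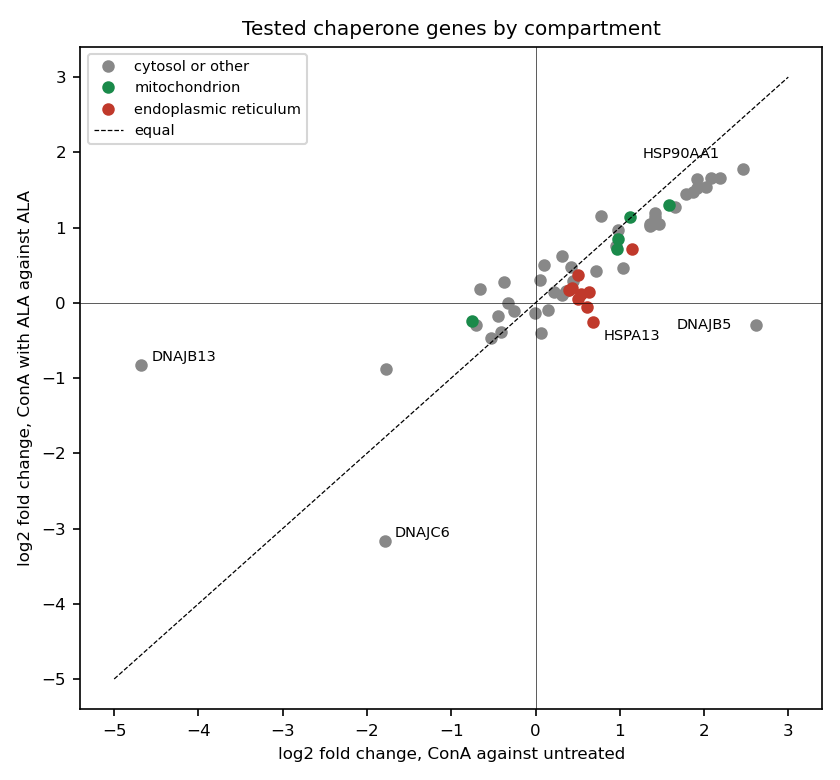
Log2 fold change of each tested member with ConA, without ALA on the horizontal and with ALA on the vertical axis, coloured by compartment; the dashed line marks equal change. The 9 ER members lie at 0.40 to 1.14 on the horizontal and −0.25 to 0.71 on the vertical axis; the labelled genes DNAJB13, DNAJB5 and DNAJC6 have few reads.

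ALA alone against untreated cells changed no member by the adjusted test. The edgeR fit called 0 of 57, with 0% of all genes called, and 0 members had an unadjusted p under 0.05. With the block 0 passed, against 0.0449% of all genes, with 8 at an unadjusted p under 0.05. DESeq2 called 0 with 1 at that level, against 0.0299% of all genes called (0.0225% higher and 0.00749% lower). The share of all genes at that unadjusted level is not given here, so the 8 are not read as a result about the members. The 3 members with the smallest p were DNAJB5, HSPA5 and HSP90AB1. DNAJB5 was at 0.18, 0 and 0.233 CPM in untreated and 0.414, 0.785 and 0.388 CPM in ALA libraries, a few reads each. HSPA5 was at 527, 330 and 563 CPM with ALA, higher than the untreated library of the same number in 3 of 3, with a difference of 0.46 ± 0.29 (unadjusted p = 0.135). HSP90AB1 was 0.36 ± 0.23 higher (unadjusted p = 0.138), and its ALA values, given above, lay above all untreated ones. Groups without overlap and higher with ALA were seen for 1.91% of all genes. Of the ER members all 9 had a difference above 0, at 0.16 to 0.67, and none passed.

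ALA added to ConA, against ConA alone, also left every member short of the threshold. The edgeR fit called 0 of 57 members and 0% of all genes. The block called 0 members and 0.554% of all genes, and DESeq2 called 0 members and 0.367% of all genes. At an unadjusted p under 0.05 stood 1 member by edgeR (DNAJB13), 3 with the block and 1 by DESeq2, with no share of all genes at that level given here. All 8 tested chaperonin genes had a difference below 0, between −0.12 and −0.25. CCT6A was at 394, 358 and 283 CPM with ConA and 317, 295 and 261 CPM with both, lower within each number and overlapping between groups (−0.25 ± 0.18, unadjusted p = 0.205). DNAJC9 differed by −0.47 ± 0.35 (unadjusted p = 0.209), with 62.7, 25.9 and 37.7 CPM against 44.7, 27.6 and 19.1 CPM. HSP90AA1 differed by −0.49 ± 0.57 and HSP90AB1 by −0.12 ± 0.23.

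Whether the ConA response differed with ALA was tested as an interaction, the ConA difference with ALA minus that without it. The edgeR fit called 0 of 57 members and 0% of all genes, with 0 members at an unadjusted p under 0.05. The block called 0 members and 0% of all genes, with 10 members at that level. DESeq2 called 0 with 2 at that level, against 0.0299% of all genes called (0.00749% higher and 0.0225% lower). The share of all genes at that unadjusted level is not given here, so these counts are not read as results about the members. The interaction was below 0 for 40 of 57 members, with a median of −0.23 against −0.02 over all genes. The 3 smallest p belonged to DNAJB13 (3.85 ± 1.85) and DNAJB5 (−2.92 ± 1.44), both with few reads, and to CCT4 (−0.43 ± 0.28, unadjusted p = 0.154). The interaction estimates of the 9 ER members were all below 0, from −0.13 for DNAJC10 to −0.94 for HSPA13, and none passed in either model. HSPA13, an ER-associated HSP70, was at 13.7, 7.5 and 23.8 CPM in untreated, 21.9, 10.1 and 39.7 CPM in ALA, 22.9, 16.6 and 32.8 CPM in ConA and 18.1, 13.8 and 28.4 CPM in ConA+ALA libraries. All 4 groups of HSPA13 overlapped, and number 3 was the highest and number 2 the lowest in each. The interaction, the ConA comparisons and the ALA comparisons share libraries and are not independent.

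**Figure D5:**
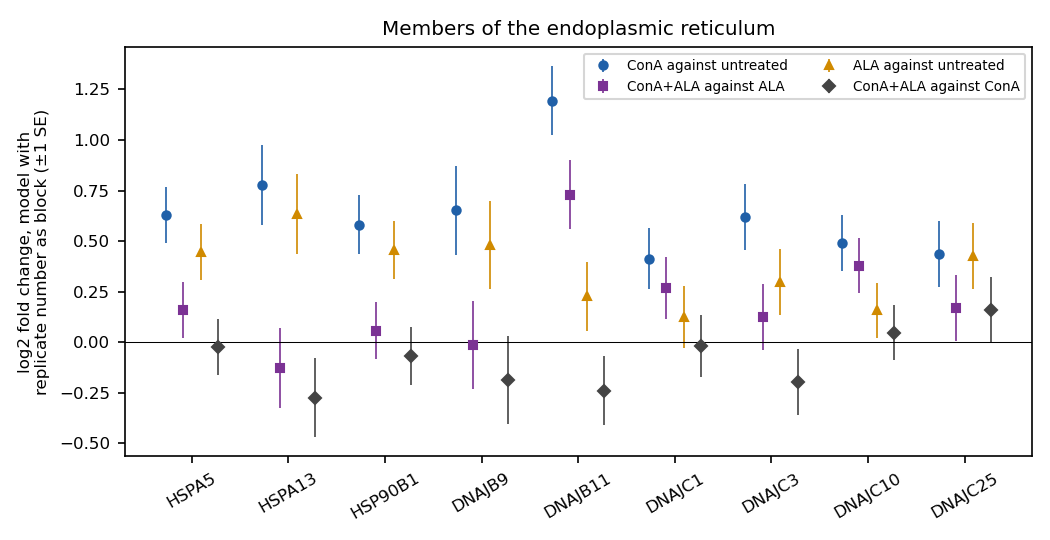
Log2 fold change of the 9 ER members in 4 comparisons, fitted with the block, with bars of 1 SE. The ConA points without ALA lie at 0.41 to 1.20, those of ALA against untreated at 0.13 to 0.63, and those of ConA+ALA against ConA at −0.27 to 0.16.

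Genes that work with the members but were not chosen by the rule were counted in 4 lists. Of all genes, 9.93% rose and 8.57% fell with ConA (21.3 and 21.2% with the block), and 5.09% rose and 3.03% fell with ConA when ALA was present (15.8 and 14.3% with the block). Of 27 tested co-chaperones of HSP70 and HSP90 and heat shock factors, 9 rose and 1 fell with ConA (13 and 3 with the block), with a median of 0.42. HSPBP1, a nucleotide exchange factor of HSP70, differed by 1.64 ± 0.23, AHSA1, an activator of HSP90, by 1.51 ± 0.22, the HSP90-binding PPID by 1.52 ± 0.23 and NUDC by 1.32 ± 0.24. HSF1, the transcription factor of the heat shock response, was at 89.6 CPM on average in untreated and 96.0 in ConA cells (0.10 ± 0.20, adjusted p = 0.777). HSF2 differed by 0.54 ± 0.37 (adjusted p = 0.348). With ALA present 5 of the 27 rose (12 with the block, and 1 fell).

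Of 14 prefoldin and tubulin-folding genes, which hand substrates to and from the chaperonin, 2 rose with ConA, PFDN6 (1.06 ± 0.26) and PFDN1 (0.62 ± 0.19), and 6 did with the block. On 14 genes, 2 calls are near the share of all genes that rose. With ALA present 1 rose, and 5 with the block. Of 20 ER folding genes outside the members 1 rose, no more than the share of all genes, MANF, an ER stress protein (1.25 ± 0.39, adjusted p = 0.0442), and 8 with the block, among them CALR (0.60 ± 0.20) and CANX (0.85 ± 0.31), lectin chaperones of glycoproteins, and the oxidase ERO1B (1.04 ± 0.42). With ALA present none of the 20 passed by edgeR, and 1 did with the block. Of 13 mitochondrial folding and protease genes 7 rose with ConA (8, and 1 fell, with the block) and 5 with ALA present (7, and 1 fell). They include TIMM44, of the import motor with DNAJC19 (1.42 ± 0.19), GRPEL1, the exchange factor of HSPA9 (1.11 ± 0.19), the processing peptidase PMPCA (1.01 ± 0.18) and the protease LONP1 (1.01 ± 0.19). None of the 4 lists had a member called for ALA against untreated, for ConA+ALA against ConA or for the interaction, with or without the block.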

How the data were processed

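Poly(A) RNA of 12 cultures was made into NEBNext Ultra II libraries and sequenced as 75 bp paired ends (per the labels' protocols). CanFam3.1 and bcl2fastq are named in the submitters' processing notes; for the aligner, the counter and the use of strand a statement is not given in the sources used here. Total and unique exon reads per gene were used as the counts that the authors deposited, without normalization, and TPM as deposited by the authors only to compare levels between genes per length. Exon reads numbered 13390692 to 21517099 per library, of which 93.6 to 95.0% were unique to a gene.

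Groups and numbers came from the titles. Counts of all 12 libraries were fitted with edgeR 4.0.16 in R 4.3.3 (TMM, filterByExpr, robust quasi-likelihood F-test, 4 group means), and calls rest on p adjusted by Benjamini-Hochberg over all 13358 genes kept, under 0.05. Counts of members at an unadjusted p under 0.05 are given without the share of all genes at that level and are not results about the members. SE is the log2 fold change over the root of F. CPM are on TMM-scaled library sizes, and a ratio on few reads has a 95% exact counting interval, which covers counting error only. Scripts were tested on simulated data. Libraries of the same number deviated together from their group means (18 pairs, correlations 0.376 to 0.748, against −0.498 to 0.206 for other pairs), and 12 of 12 correlated best with their own number. The main fit nevertheless has no pairing, because the labels do not say what a number marks. The number was taken as pairing only in the alternative with the block. Biological coefficients of variation were 0.422 without and 0.217 with the number as block.

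The members, lists and tests were chosen with earlier results of these data known. Named with values were HSPA4, HSPA5, HSPA8, HSPA9, HSPA14, HSPH1, the HSP90 genes, HSPB1, DNAJA1, DNAJB1, DNAJC2, DNAJC3, the chaperonin genes, and by class up to 4 members called with ConA, or the 3 smallest p where none was called. From each list up to 4 genes were named by smallest p, with HSF1 and HSF2. HSPA1L, HSPA2, HSPA4L, HSPA13, DNAJA3, DNAJB2, DNAJC13 and the ER members were also named, most after their values were seen. Alternatives were DESeq2 1.42.0, DESeq2-type size factors, no filter, unique reads, mitochondrial genes left out, the block, and each library or number left out. Promoters and sequences were not analysed here.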

Additional observations from a re-analysis of the deposited data

How the results depend on the processing

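The count of members higher with ConA was 22, against 9.93% of all genes, and 35 with the replicate block, against 21.3%. It was 20 without number 1, 0 without number 2 and 15 without number 3, against 9.6, 0.309 and 4.38% of all genes. With single libraries left out it was 18 to 23, with no share of all genes given here. The block with each number left out, an alternative added after the data were seen, gave 25 to 32, against 14.7 to 20.8% of all genes. The count of members lower with ConA was 1, and 2 with the block and 0 without the filter on low counts; with libraries or numbers left out, with or without the block, it was 0 to 1. For ConA with ALA against ALA the count of members higher was 16, against 5.09% of all genes, and 27 with the block, against 15.8%. It was 17 without number 1, 0 without number 2 and 2 without number 3, against 4.74, 0 and 0.74% of all genes. With single libraries left out it was 9 to 18, with no share of all genes given here. The block with each number left out gave 20 to 25, against 9.09 to 15.6% of all genes. The count lower there was 0, and 1 with the block (0 to 1 with the block and each number left out). A fit without a number has 2 libraries per group, and one without a library assumes that the others of its group vary like those of the other groups. The block changed no other call of a named member. DESeq2-type size factors and leaving out mitochondrial genes kept both counts of higher members within 1.5 times. Estimates that changed sign, none of them called, were in ConA with ALA against ALA: HSPA5 without ALA 2 (−0.062, with single libraries left out up to 0.28), HSP90B1 without ALA 1 (−0.066), ALA 2 (−0.097) and ConA+ALA 3 (−0.21, up to 0.36), and DNAJC3 without ALA 1 (−0.16) and ConA+ALA 3 (−0.29, up to 0.50); the cause was not tested. At the depth of these libraries members under about 1 CPM, such as DNAJB13, rest on a few reads. Groups of 3 libraries are too small for a search for single outlying libraries.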

Other observations

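BAG3, a co-chaperone of HSP70 known as a heat shock target, was singled out after its values were seen. It averaged 1.15 CPM in untreated cells, 3.38 with ALA, 4.72 with ConA and 4.95 with both (n = 3 each). It rose with ConA (log2 2.04 ± 0.46, adjusted p = 0.0105), and with ALA present the ConA difference was 0.55 (adjusted p = 0.511). For BAG3 neither ALA against untreated nor the interaction passed, with or without the block. A different ConA response of BAG3 with ALA is therefore not shown. Also singled out afterwards were the HSP90 co-chaperone FKBP4, which rose with ConA by 1.84 ± 0.35, and TOMM34, a co-chaperone of the mitochondrial import path, which was the gene of its list that fell (−0.88 ± 0.25, adjusted p = 0.0322).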
